A study of Bos taurus with 16 samples.

Results

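The trefoil peptides TFF3 and TFF2, the mucus protein FCGBP, the membrane-bound mucins MUC1 and MUC16, the protein disulfide isomerase AGR2 and the transcription factor SPDEF are genes of mucus-producing epithelium. Their transcripts were followed in dairy cows with subclinical endometritis (SCE) and in healthy cows, both in the endometrium and in white blood cells (WBC) of the circulation. The members were the array probes that carry one of these gene symbols, together with the probes named ENSBTAG00000005261, the identifier of FCGBP. By this rule 6 of the 7 genes had a probe and 20 of 46615 probes were members. FCGBP and MUC1 had 5 probes each, SPDEF had 4, and TFF3, TFF2 and AGR2 had 2 each. No probe carried the name MUC16. The genes were selected on measured values in part, since the difference between SCE and healthy endometrium was already known for TFF3 and FCGBP when they were listed. For that reason the values of SCE and healthy cows in that tissue are given for every member as a description, without a p-value, and support nothing further.

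Multiparous Holstein-Friesian cows without clinical signs were classed by histology of the uterus, and 4 SCE cows (718, 833, 836 and 846) and 4 healthy cows (841, 850, 877 and 883) were sampled once, at 45 to 55 days post-partum. Each cow gave RNA from a transcervical endometrial biopsy and from jugular blood collected in PAXgene tubes, and each RNA was hybridised to 1 one-colour array. The 16 arrays thus formed 4 groups of 4: endometrium of SCE cows, endometrium of healthy cows, WBC of SCE cows and WBC of healthy cows. Most SCE cows were in the luteal phase of the estrous cycle and the healthy cows were evenly divided between luteal and follicular phase, and the stage of single cows was not given in the labels, so disease and cycle stage cannot be told apart. The WBC samples shared 1 slide and the biopsies the other, 8 arrays each, so that tissue and slide cannot be told apart either, while each row of a slide held 2 SCE and 2 healthy cows.

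Mucus that covers epithelia is built from large gel-forming mucins, which goblet and other mucous cells fold in the endoplasmic reticulum with the help of AGR2 and store under the control of SPDEF. Trefoil peptides are small, disulfide-rich proteins that are secreted with the mucins and are known for their part in the repair of injured epithelium. FCGBP binds within mucus, whereas MUC1 and MUC16 stay anchored in the apical membrane of epithelial cells. In the uterus these genes belong to the luminal and glandular epithelium, which is one part of a biopsy that also holds stroma, vessels, smooth muscle and leukocytes.

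What the array could see of these genes depended on the probes, which are all 60 bases long. The following 30-base stretches of the brightest TFF3, TFF2, MUC1 and SPDEF probes and the whole of an AGR2 probe are shown because they hold AATAAA, in capitals. This is the sequence of the usual polyadenylation signal, but its use as a signal was not tested for any probe. All are written 5′ to 3′ on the strand of the transcript.
TFF3, probe A_73_P385536, bases 6 to 35: gatgtcttaaagAATAAAgctcccgtgctc
TFF2, probe A_73_P034181, bases 31 to 60: acatatgatttcttcaAATAAAgaaagccc
MUC1, probe A_73_115084, bases 23 to 52: tgaacatggctgAATAAAatgcagacctcc
SPDEF, probe A_73_107060, bases 31 to 60: gccaggggtgccctggggacggatAATAAA
AGR2, probe A_73_P102196, bases 1 to 60: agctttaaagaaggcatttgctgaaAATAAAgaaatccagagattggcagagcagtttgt
In the HGSC Btau_3.1 coordinates of the array files these probes lie at chr1:145429703-145429762, chr1:145487220-145487279, chr3:16811936-16811995, chr23:8861914-8861973 and chr4:26434052-26435331. The MUC1 probe is on the plus strand and the others are on the minus strand. The AGR2 probe spans 1280 bases of genome and so crosses an intron. It starts at base 306 of the transcript, and the other AGR2 probe at base 633. The TFF3 probe shown starts at base 412, and the second TFF3 probe at base 743. In the AGR2 and TFF3 transcripts AATAAA thus lies well before the 3′ end. For TFF2, MUC1 and SPDEF its distance from that end is not known here. The counts below are of the sequence only. AATAAA occurred on the transcript strand of 5 of the 20 member probes and on the opposite strand of none, against 9.52% and 3.54% of all 46615 probes. TFF3 and TFF2 are neighbours on chromosome 1, and the second TFF2 probe (A_73_P134396, chr1:145487309-145487368) is placed on the plus strand, opposite to the gene.

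The FCGBP probes gave different answers for SCE and healthy endometrium, and their sequences are shown for that reason. Capitals mark the 59 bases that the pair of custom probes has in common.
FCGBP, custom probe CUST_485: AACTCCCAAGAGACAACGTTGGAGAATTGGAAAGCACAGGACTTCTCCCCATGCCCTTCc
FCGBP, custom probe CUST_486: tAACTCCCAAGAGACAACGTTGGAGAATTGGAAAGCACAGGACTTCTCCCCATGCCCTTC
FCGBP, probe A_73_P132256: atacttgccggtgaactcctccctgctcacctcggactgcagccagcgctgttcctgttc
FCGBP, probe A_73_P303606: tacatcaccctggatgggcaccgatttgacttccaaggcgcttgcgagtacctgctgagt
FCGBP, probe A_73_P384836: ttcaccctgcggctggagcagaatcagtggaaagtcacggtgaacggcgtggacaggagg
The custom probes are shifted by a single base against each other, so they are not independent readings of the gene. They carry no position in the array files, and each was printed on 3 spots, whereas the other 18 member probes were on 1 spot. The last 3 probes lie on an unplaced scaffold and start at bases 5081, 2982 and 696 of the transcript in the array files. Apart from the custom pair, the longest run shared by any 2 probes of a gene was 11 bases.

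Of the 20 member probes, 17 were well above background, by the scanner software's own test, on at least 1 array, against 88.7% of all probes, 11 were so on all 8 endometrium arrays, against 59.3%, and 9 on all 8 WBC arrays, against 60.8%. The 3 that never were are the plus-strand TFF2 probe and the FCGBP probes A_73_P303606 and A_73_P384836. Values below are log2 normalized intensities, on which 1 unit is a doubling of brightness. They compare arrays for 1 probe and cannot rank genes, since probes differ in brightness. The endometrium array of SCE cow 833 stood apart: its median spot lay 79 intensity units above local background against 248 to 316 on the other 7 endometrium arrays, and 64.7% of its spots were well above background against 69.2% to 79.8%. The endometrium differences of TFF3, AGR2, SPDEF, FCGBP, MUC1 and the gel-forming mucins are therefore also given without it. Within a group each array was a different cow, so the spread between arrays holds animal and technical variation together.

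TFF3 was bright in every endometrial biopsy and brighter in those of SCE cows. In endometrium its brightest probe read 11.46, 9.80, 9.91 and 12.35 in the healthy cows, given in the order 841, 850, 877 and 883. The SCE cows, in the order 718, 833, 836 and 846, had 12.98, 14.76, 13.13 and 12.73. All 4 SCE cows thus lay above all 4 healthy cows, the gap between the lowest SCE cow and the highest healthy cow was narrow, and the healthy cows covered a range of 5.89-fold. The mean of the SCE cows was 13.40 ± 0.92 and that of the healthy cows 10.88 ± 1.24 (SD, n = 4 each). They differed by 2.52 on the log2 scale, with a 95% interval of 1.0 to 4.04. The second TFF3 probe, which lies further towards the 3′ end (chr1:145429372-145429431), gave 10.80 ± 1.06 against 8.62 ± 0.84 and again no overlap of the groups. Its difference was 2.19 with an interval of 0.85 to 3.53, and the 2 probes followed each other across the 8 biopsies with a Pearson r of 0.99. Without SCE cow 833 the difference was 2.07 for the brightest probe and 1.67 for the second, and with 1 of the other cows left out that of the brightest was 2.16 to 3.01. The paper reports by RT-qPCR that endometrial TFF3 in healthy cows differed between follicular and luteal phase. The part of cycle stage in the TFF3 difference was not tested here. In a biopsy, more cells of a type and more RNA per cell cannot be told apart.

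**Figure D1:**
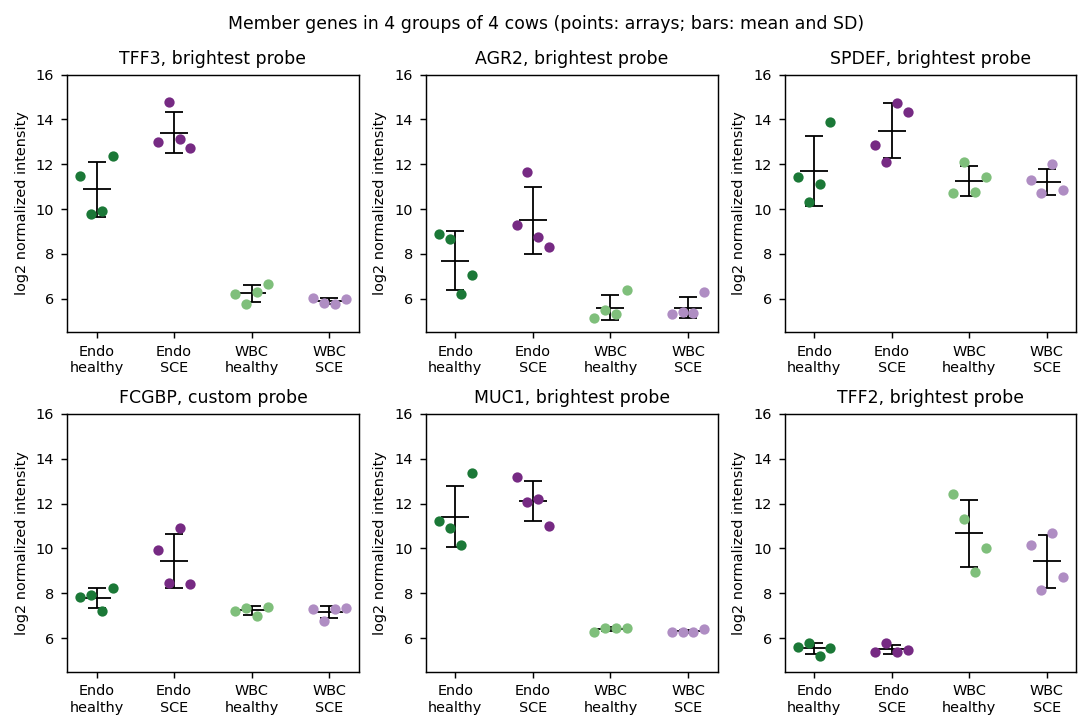
Log2 normalized intensity (vertical axis) of the brightest probe of TFF3, AGR2, SPDEF, MUC1 and TFF2 and of a custom FCGBP probe in the 4 groups, with 1 point per array and bars for mean and SD (n = 4). The 4 SCE endometria lie above the 4 healthy ones for TFF3 and the custom FCGBP probe and overlap them for the others, and TFF2 is bright in WBC, from 8.16 to 12.42, and near 5.5 in endometrium.

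AGR2, which helps mucins and trefoil peptides to form their disulfide bonds, was well above background in 7 of the 8 biopsies. Its brightest probe (chr4:26426546-26426605) read 8.90, 8.68, 6.19 and 7.05 in the healthy cows, given in the order 841, 850, 877 and 883. The SCE cows, in the order 718, 833, 836 and 846, had 9.29, 11.67, 8.74 and 8.29. The groups overlapped, because healthy cows 841 and 850 lay above SCE cow 846, and cow 833 stood above all others. The difference was 1.79 with a 95% interval of -0.16 to 3.74. The intron-crossing probe shown above had means of 8.30 ± 1.24 in SCE and 6.56 ± 0.67 in healthy cows (SD, n = 4 each), a difference of 1.74 with an interval of 0.35 to 3.12, and was well above background in only 2 of the 4 healthy cows. Without SCE cow 833 the difference of the brightest AGR2 probe was 1.07 and that of the intron-crossing probe 1.18, and without healthy cow 877 the former was 1.29.

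SPDEF, which drives the maturation of mucous cells, was 3.51-fold higher in the mean of SCE than of healthy endometrium but spread widely within both groups. Its brightest probe read 11.44, 10.30, 11.12 and 13.90 in the healthy cows, given in the order 841, 850, 877 and 883. The SCE cows, in the order 718, 833, 836 and 846, had 12.84, 12.12, 14.72 and 14.32. Healthy cow 883 was above SCE cows 718 and 833, and the highest healthy value was 12.2-fold above the lowest. The difference was 1.81 with an interval of -0.13 to 3.75. With 1 cow left out it ran from 1.34 without healthy cow 850 to 2.55 without healthy cow 883, and it was 2.27 without SCE cow 833. The other 3 probes, at chr23:8862437-8862496, chr23:8862536-8864451 and chr23:8868858-8868917, had differences of 0.92, 1.3 and 0.83, each with an interval that included 0. The 4 probes followed each other across the 8 biopsies, with r from 0.96 to 0.99 between pairs.

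The 5 FCGBP probes did not give 1 answer. The custom probe CUST_486 read 7.75, 7.80, 7.05 and 8.19 in the healthy cows, given in the order 841, 850, 877 and 883. The SCE cows, in the order 718, 833, 836 and 846, had 9.98, 8.35, 11.03 and 8.38. The SCE cows lay above the healthy cows without overlap, although cows 833 and 846 did so only just, and the difference was 1.74 with an interval of 0.37 to 3.1. CUST_485, which shares 59 bases with it, gave 1.65. Without SCE cow 833 these differences were 2.1 and 1.97, and with 1 cow left out that of CUST_485 was 1.15 (without SCE cow 836) to 1.99 (without SCE cow 846). The probe A_73_P132256, which lies within the transcript at base 5081, had 9.84 ± 0.09 in healthy and 10.23 ± 0.57 in SCE cows (SD, n = 4 each), with a difference of 0.39 and an interval of -0.21 to 0.99, and 0.17 without SCE cow 833. Its highest SCE values came from cows 833 and 836 and its lowest from cow 718, which was the second highest by the custom probes. Before normalization A_73_P132256 was lowest of the 8 biopsies in cow 833, at 799. Across the 8 biopsies the custom probes followed each other with an r that rounded to 1, and A_73_P132256 with r = 0.3 and 0.32. The remaining pair of FCGBP probes was not well above background on any array.

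MUC1, a mucin of the epithelial surface, was bright in all biopsies, and its groups overlapped. Its brightest probe read 11.20, 10.93, 10.15 and 13.34 in the healthy cows, given in the order 841, 850, 877 and 883. The SCE cows, in the order 718, 833, 836 and 846, had 13.19, 12.07, 12.20 and 10.99. The highest value was that of healthy cow 883. The difference was 0.70 with an interval of -0.90 to 2.31, which spans lower and higher levels in SCE cows. It was 0.29 without healthy cow 877, 0.34 without SCE cow 718, 1.08 without SCE cow 846 and 1.35 without healthy cow 883, and 0.72 without SCE cow 833. The other 4 probes had differences between -0.05 and 0.37, each with an interval that included 0.

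TFF2 was not well above background in any biopsy, and its brightest probe read 5.20 to 5.80 there. MUC16 could be followed only through a probe (A_73_P084081) that the array names by a transcript and describes as mucin 16, which the rule for members does not take. It was well above background in 2 healthy and 1 SCE biopsy and in no WBC sample, and its highest value was 7.28 in SCE cow 718.

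In all, 18 of the 20 member probes had a higher mean in SCE than in healthy endometrium, against 49% of all 46537 probes tested, and the median difference was 0.77 against 0 for all probes. With limma's TREAT test against a 1.2-fold change, 5 member probes (those of TFF3, the custom FCGBP pair and the intron-crossing AGR2 probe) passed before adjustment, all higher in SCE cows, where 0.451% of all probes did and 0.256% were higher, and 0 passed after Benjamini-Hochberg adjustment, where 0% did. The groups did not overlap for 5 member probes, the 2 of TFF3, the custom FCGBP pair and the dim FCGBP probe A_73_P303606, where this was so for 1.63% of all probes, and with SCE higher for 0.7%. TFF3 and FCGBP were listed for this contrast, and nothing is read from these counts. In the order of differences over all probes, those of TFF3 were the 17th and 35th highest, those of AGR2 the 59th and 68th, those of the custom FCGBP pair the 69th and 87th, the brightest of SPDEF the 57th and that of MUC1 the 794th.

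**Figure D2:**
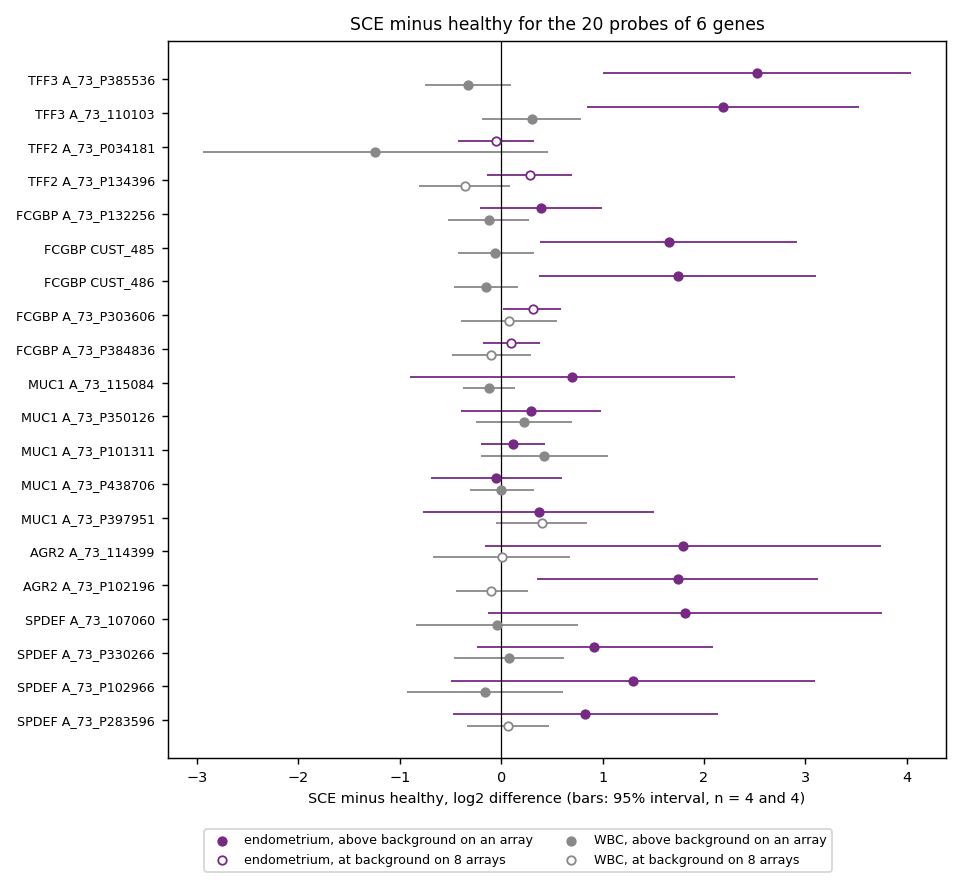
Log2 difference of SCE minus healthy cows (horizontal axis) for each of the 20 member probes, with 95% intervals, in endometrium (purple) and WBC (grey). Open symbols are probes that were not well above background on any of the 8 arrays. The intervals of both TFF3 probes, the custom FCGBP pair and 1 AGR2 probe lie above 0 in endometrium, as does that of 1 dim FCGBP probe, and every interval in WBC includes 0.

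The cows that were high differed from gene to gene. Ranks here are of normalized values. TFF3 and AGR2 were both highest in SCE cow 833, where SPDEF and the custom FCGBP probes were only the 5th and 4th highest of 8. Before normalization the brightest TFF3 probe read 12309 in cow 833, whose array was dim, and 13347 in SCE cow 718. The brightest MUC1 probe was then also highest in cow 718, at 15061. That of AGR2 was still highest in cow 833, at 1346. SPDEF and custom FCGBP were both highest in SCE cow 836. MUC1 was highest in healthy cow 883, which was the third highest for SPDEF but the 7th for AGR2. Healthy cow 877 was lowest for AGR2, the custom FCGBP probes and MUC1, and the second lowest for TFF3 and SPDEF. No single order of cows held for the 5 genes.

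**Figure D3:**
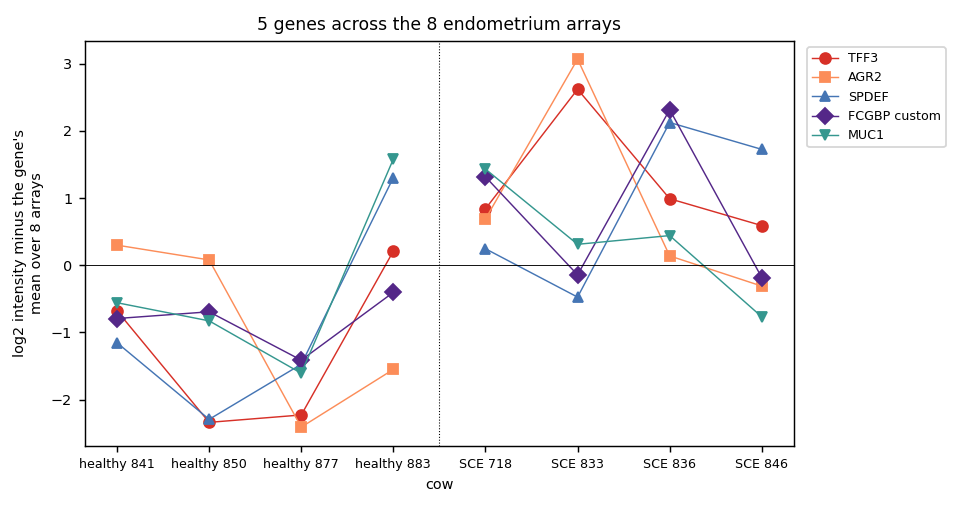
Log2 normalized intensity of 5 genes in each of the 8 endometrium arrays, given as the deviation from the gene's own mean over the 8 arrays (vertical axis) by cow (horizontal axis). Lines only join the points of 1 gene within a group. TFF3 and AGR2 peak in SCE cow 833 (14.76 and 11.67), SPDEF and custom FCGBP in SCE cow 836, and MUC1 in healthy cow 883 (13.34). Before normalization TFF3 and MUC1 were both highest in SCE cow 718.

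Markers of the cell types in a biopsy differed between the same cows. The mean of 12 epithelial markers was 9.85 ± 0.76 in healthy and 10.09 ± 0.66 in SCE endometrium (SD, n = 4 each), from 8.90 in healthy cow 877 to 10.77 in SCE cow 836. Of the 12, 10 were well above background on all 8 endometrium arrays and 5 on all 8 WBC arrays. By TREAT after adjustment 9 were higher in endometrium and 3 in WBC (KRT8, KRT19 and CLDN4, by 1.69, 1.3 and 1.4). The mean thus does not stand for epithelial cells alone. Stromal markers had means of 13.49 and 12.97, neutrophil markers of 7.69 and 8.22, and plasma cell markers of 8.52 and 9.27 in healthy and SCE cows. No marker of the 12 epithelial ones passed TREAT before adjustment. The 8 neutrophil markers had 1 that did, and none of them was lower in SCE cows. Cow 833 had the lowest stromal mean, 12 against 12.71 to 13.98 in the other biopsies. It also had the highest neutrophil mean, 9 against 7.53 to 8.33, and the highest endothelial mean, 13.12 against 10.29 to 11.17, while its epithelial mean of 9.38 was the lowest of the SCE cows. Without it the means of the SCE cows were 10.32 for epithelial, 13.29 for stromal and 7.96 for neutrophil markers. The part of these cell types in the differences of TFF3, AGR2, SPDEF and FCGBP was not tested.

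In WBC no member passed the test between SCE and healthy cows. Of the 20 probes, 0 passed TREAT after adjustment and 0 before, where 0.122% of all 46581 probes did before adjustment, and 0 passed without a fold threshold. The median difference of the member probes was -0.05, against -0.01 for all probes, 9 of the 20 were higher in SCE cows, against 48.1% of all probes, and the groups overlapped for each of the 20, while they did not for 1.3% of all probes. The brightest TFF3 probe was close to background in WBC, at 5.75 to 6.68 with 1 of 8 arrays well above it, while the second was well above background on 5 of 8 at 5.70 to 6.81. AGR2 was well above background on 0 of 8 by both probes.

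By their brightest probes SPDEF and FCGBP were bright in WBC. TFF2 was bright there too, but at background in endometrium. In WBC its probe read 12.42, 11.29, 8.94 and 10.01 in the healthy cows, given in the order 841, 850, 877 and 883. The SCE cows, in the order 718, 833, 836 and 846, had 10.14, 8.16, 10.69 and 8.71. The values spread over 19.2-fold among the 8 cows, and the groups overlapped. The mean of the SCE cows was 9.42 ± 1.19 and that of the healthy cows 10.66 ± 1.51 (SD, n = 4 each), a difference of -1.24 with an interval of -2.94 to 0.46. By limma's TREAT test the unadjusted p was 0.15 and the adjusted p was 1. Only 1 of 46581 probes had a lower difference, yet the spread within the groups was of the size of the gap between their means. Without healthy cow 841 the difference was -0.66, without SCE cow 833 it was -0.82 and without healthy cow 877 it was -1.82. Neutrophil markers, whose mean was 13.38 ± 0.36 in healthy and 13.34 ± 0.14 in SCE blood, and T cell markers, at 12.86 ± 0.23 and 12.77 ± 0.18, differed little between these WBC samples. In a larger set of cows the paper reports higher blood counts of leukocytes, lymphoid cells and monocytes with SCE. Those are cell numbers, which the markers do not measure, and monocytes had no marker list. The part of cell types in the TFF2 difference was not tested.

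The difference of the SCE effect between the tissues uses the endometrium values above and is likewise a description. It passed TREAT for 5 member probes before adjustment, where 0.488% of all probes did, and for 0 after it, where 0% did. It was 2.84 for TFF3 (95% interval 1.31 to 4.38), 1.79 for AGR2 (-0.24 to 3.81), 1.85 for SPDEF (-0.21 to 3.91), 1.88 for the custom FCGBP probe CUST_486 (0.52 to 3.24), 0.82 for MUC1 (-0.75 to 2.39) and 1.19 for TFF2 (-0.67 to 3.05).

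The comparison of endometrium with WBC separated the members most clearly. It includes the endometrium values of SCE cows, whose difference from healthy cows was known for TFF3 and FCGBP when they were listed. Over all 16 arrays 14 of the 20 member probes passed TREAT after adjustment, 11 of them higher in endometrium and 3 higher in WBC, where 53.9% of all 46520 probes passed, 22.7% higher and 31.3% lower in endometrium. The share of member probes called was thus not far from that of all probes, and it is the size of single differences that stands out. The median of all probes was itself -0.16 in this contrast and ran from -0.40 to 0.35 with other scalings, so only differences well beyond these values hold under every scaling. TFF3 was higher in endometrium by 6.07 (standard error 0.36), which is 67.0-fold, and MUC1 by 5.41 (0.37), which is 42.4-fold (limma TREAT, adjusted p = 8.3e-10 and 4.7e-09). Both probes were well above background on 1 of 8 WBC arrays, so the WBC side of these folds is close to background. The second TFF3 probe, well above background on 5 of 8 WBC arrays, gave 3.3, which is 9.82-fold (adjusted p = 4.9e-07 by limma TREAT). All 3 probes were higher in 8 of 8 biopsies than in any WBC sample. The share of all probes without overlap between the tissues is not given, so this separation cannot be ranked.

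TFF2 ran the other way. Under the main scaling it was at least 20.4-fold higher in WBC than in endometrium (limma TREAT, adjusted p = 3e-07), a lower bound because no biopsy was well above background. The measured difference was -4.52 (standard error 0.44), and it ran from -7.46 to -3.72 over 5 scalings, so the bound does not hold under every scaling. Of the trefoil neighbours on chromosome 1, TFF3 was thus higher in endometrium and TFF2 in WBC. Under the main scaling AGR2 was at least 6.71-fold higher in endometrium by its brightest probe and at least 3.13-fold by the other (adjusted p = 7.3e-05 and 2.4e-04), with 0 of 8 WBC arrays well above background. Over 5 scalings the measured differences ran from 2.42 to 4.76 and from 1.44 to 3.46.

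Within healthy and within SCE cows the comparison of tissues uses the endometrium values above and is given without a test. For TFF3 the order of the groups was SCE endometrium, healthy endometrium and then both WBC groups, which did not differ beyond their spread. By its brightest probe the tissues differed by a measured 25-fold in healthy cows, where 1 of 4 WBC arrays was well above background. In SCE cows that probe gave at least 176-fold. The second TFF3 probe measured only 5.1-fold in healthy and 18.9-fold in SCE cows. It was well above background on 2 and 3 of the 4 WBC arrays. For TFF2 it was WBC of healthy and of SCE cows, which overlapped, and then both endometrium groups at background, at least 31.1-fold lower in healthy and 13.4-fold lower in SCE cows. By the brightest MUC1 probe both endometrium groups overlapped and lay above both WBC groups. The tissues differed by a measured 31.9-fold in healthy cows, again with 1 of 4 WBC arrays well above background. In SCE cows they differed by at least 56.4-fold. SPDEF was bright in WBC as well by its brightest probe, at 10.70 to 12.09, and differed between tissues by 0.44 in healthy cows and by 2.29 in SCE cows. The SPDEF probes A_73_P330266 and A_73_P102966 were also well above background on all 8 WBC arrays. The dimmest, A_73_P283596, was so on 0 of 8 WBC arrays, at 5.82 to 6.54, and in 6 of 8 biopsies, so the probes disagree on SPDEF in WBC. The custom FCGBP probe CUST_486 differed by 0.72 in healthy cows and by 2.6 in SCE cows.

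Probes of 1 gene disagreed in this contrast for MUC1, FCGBP and SPDEF. In the order of their start in the MUC1 transcript, at bases 145, 906, 1110, 1233 and 1995, the probes differed by -1.05, 0.62, 0.13, 1.66 and 5.41 between endometrium and WBC. Adjusted p was 4.2e-04, 0.042, 0.93, 2.6e-04 and 4.7e-09 (limma TREAT), so the 5′-most probe was higher in WBC and the 3′-most higher in endometrium. For FCGBP the custom pair was higher in endometrium by 1.41 and 1.66 (adjusted p = 0.0022 and 7.8e-04) and A_73_P132256 was higher in WBC, with -0.99 (adjusted p = 6.4e-04). With normalization within each tissue A_73_P132256 moved to -0.03 and the 5′-most MUC1 probe to -0.37, neither past the test, and the MUC1 probe at base 906 missed it with normexp background correction (0.45, adjusted p = 0.18). The SPDEF probes gave 1.36, -0.36, 0.84 and 1.15 in the order of their brightness, of which the first and the last passed (limma TREAT, adjusted p = 0.04 and 0.013). The first did not with the processed signal scaled to its 75th percentile (1.03, adjusted p = 0.11), and the second turned to 0.61 with normalization within each tissue. In healthy cows alone the custom FCGBP pair differed by 0.56 and 0.72, and the first and last SPDEF probes by 0.44 and 0.76. Each of these 95% intervals included 0. In SCE cows the values were 2.27 and 2.6, and 2.29 and 1.53, so these pooled calls rest largely on the SCE cows. A_73_P132256 differed by -1.25 in healthy and -0.73 in SCE cows.

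**Figure D4:**
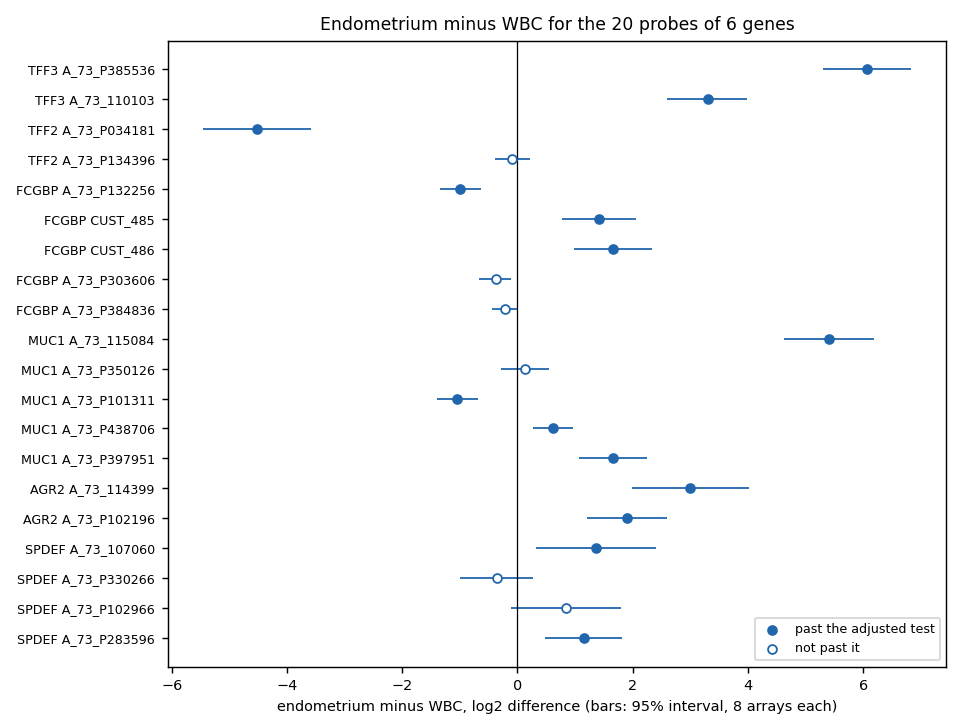
Log2 difference of endometrium minus WBC (horizontal axis) for each of the 20 member probes, with 95% intervals over 8 arrays per tissue. Filled symbols passed TREAT after adjustment over all probes and open ones did not. TFF3 and 1 MUC1 probe lie at 6.07 and 5.41, TFF2 lies at -4.52, and the probes of MUC1, FCGBP and SPDEF fall on both sides of 0, where 1 SPDEF probe changes sign and 1 FCGBP probe reaches -0.03 with normalization within each tissue.

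The wider set of mucus genes is described by 6 lists. Of 65 related genes, 57 had a probe, and by the brightest probe of each 0 passed TREAT before adjustment in endometrium and 0 in WBC, where 0.451% and 0.122% of all probes did. Their median difference in endometrium was 0.16, from -0.48 to 2.42, with 40 of 56 fitted genes positive against 49% of all probes, and in WBC it was 0.01. GALNT6 had too few unflagged values for a fit in endometrium. No probe was found for TFF1, the third trefoil peptide, or for MUC6.

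The gel-forming mucins, which make up the mucus gel itself, were in part at background in the endometrium. By its brightest probe MUC2 was well above background in 4 of 8 biopsies, and read 6.05 to 6.29 in 7 of the 8 and 7.74 in SCE cow 833. Another MUC2 probe of similar brightness (A_73_P261541) was well above background in 7 of 8 biopsies, with a difference of -0.01. The remaining MUC2 probe (A_73_101426) was so in 0. The MUC2 values below are those of the brightest probe. MUC5AC was well above background in all 8, at 7.30 to 7.49 in 7 and 7.97 in cow 833. MUC5B read 5.81 to 6.73 in 7 biopsies and 8.28 in cow 833, with a difference of 0.85 (standard error 0.43) that was 0.39 without cow 833 and 1.91 with the processed signal scaled to its 75th percentile. Without that cow MUC2 differed by -0.15 and MUC5AC by 0.05. MUC19 was not well above background on any array. By their brightest probes the 3 detected gel-forming mucins were thus highest, after normalization, in the one biopsy array that stood apart in brightness. That array also held the highest normalized TFF3 and AGR2 values. MUC2 and MUC5AC were higher in WBC than in endometrium, by 0.97 and 0.95 on the log2 scale (limma TREAT, adjusted p = 0.0061 and 4.6e-05), and were well above background on all 8 WBC arrays. With normalization within each tissue these differences were -0.32 and -0.09, and neither passed (adjusted p = 0.6 and 1, limma TREAT).

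The 7 other membrane-bound mucins with a probe had differences of 0.14 to 0.57 in endometrium. Of these MUC15 and MUC20 were well above background in all 8 biopsies, MUC13 in 7 and the others in 1 or 0. Of the trefoil receptors and kin, CXCR4, ACKR3, LINGO2 and EGFR had differences of -0.23 to -0.03. Among 10 secreted proteins of goblet cells the median was 0.03, and 2 stood far above the rest when their values were seen: DMBT1, a mucosal scavenger protein that binds trefoil peptides, with 11.33 ± 2.65 in SCE and 8.91 ± 0.93 in healthy cows, and BPIFB1, a secreted antimicrobial protein, with 11.72 ± 1.82 and 9.40 ± 2.04 (SD, n = 4 each). Their spread was of the size of the difference, and neither passed TREAT (unadjusted p = 0.08 and 0.085, adjusted p = 1 in limma). The 11 transcription factors of goblet cells had a median of 0.34, with 10 positive, and the 21 mucin glycosylation genes, with 20 fitted, of 0.18, with 14 positive. The highest of these 2 lists, none of which passed TREAT before adjustment, were KLF4, a factor of epithelial differentiation, with 1.52 (standard error 0.87), the mucin glycan enzyme B3GNT6 with 1.35 (0.73), CREB3L4 with 1.28 (0.92) and the fucosyltransferase FUT1 with 1.0 (0.64). XBP1, which expands the secretory apparatus, had 15.33 ± 0.57 in SCE and 15.31 ± 0.29 in healthy cows.

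**Figure D5:**
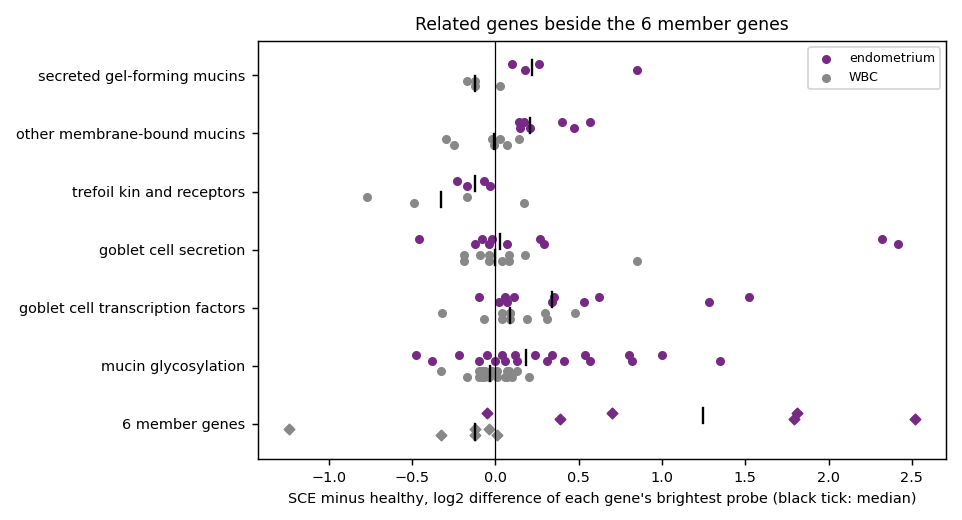
Log2 difference of SCE minus healthy cows (horizontal axis) for the brightest probe of each gene in 6 lists of related genes and for the 6 member genes, in endometrium (purple) and WBC (grey), with black ticks at the median. The lists centre between -0.12 and 0.34 in endometrium, DMBT1 and BPIFB1 lie at 2.42 and 2.32, and the members, listed with part of this contrast known, have a median of 1.25.

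The genes most like each member across the 8 biopsies, among 11921 genes detected on at least 6 of them, were found by Pearson r of the brightest probes. These were S100A10 (r = 0.976), TALDO1 (0.973) and DGCR6L (0.949) for TFF3, and CIMIP3 (0.971), C2H2orf69 (0.954) and RPH3AL (0.948) for AGR2. For SPDEF they were BCKDHB (0.958), RAB25 (0.958) and ABHD11 (0.951), and for MUC1 CADPS2 (0.943), NXT2 (0.935) and FAM76A (0.933). The custom FCGBP probe was most like GABRP (0.957), TNFRSF18 (0.94) and CCND3 (0.932), and A_73_P132256 most like BSND (0.968), NDOR1 (0.967) and MFSD2B (0.964), so that the FCGBP probes had no gene in common among the first 3. TFF2 was most like ELOB (0.956), FSD1L (0.951) and PSMB6 (0.95) across the 8 WBC arrays, among 11383 genes. With 8 arrays and so many genes, values of this size are a description of these arrays only.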

How the data were processed

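WBC and endometrium RNA of 8 cows was measured on 16 one-colour arrays. Scanned images were read by the authors in Feature Extraction (10.10.1.1), and the intensities of single spots were deposited without normalization, with background tests and flags as other columns, beside a table of quantile-normalized linear intensities. Precision is limited by 4 arrays per group. Median signals were taken without background correction, control spots and flagged spots (190 to 465 per array) were left out, log2 values were quantile-normalized over 16 arrays and spots of a probe were averaged. Groups were compared by lmFit and TREAT at 1.2-fold (limma 3.58.1, R 4.3.3), adjusted over all probes at 0.05 with at least 2 values per group. SCE and healthy cows were compared within a tissue, and tissues in 1 model of 4 groups. Intervals are 95% intervals of limma. The steps were tested on simulated data in which a probe had the same spread in all 4 groups. In endometrium 22% of 2-fold and 68% of 4-fold changes were recovered after adjustment. The spread of the real data differed between groups, so these shares need not hold for the arrays.

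The members, the lists of related genes and of cell markers, and the tests were chosen with earlier results of these data known. All member probes are reported, the brightest being the one with the highest mean over 16 arrays. Of the lists, the rule names the gel-forming mucins, TFF1 and any gene whose brightest probe passed TREAT before adjustment, and the other list genes in the text were chosen after their values were seen. The genes most alike are the 3 with the highest r. All columns of sample values were assigned to a sample. Where a group was not well above background on any array, a fold is a lower bound under the main scaling: the bright group's mean was set against the mean of the dim arrays, each raised to its lowest probe above background where the dim probe was below that. Genes were named from the array symbol (64.7% of probes) or a RefSeq accession (6.83%), with few by older symbol or description, and 27.9% kept the array's name. Probe positions are those of the array files (HGSC Btau_3.1), and the RefSeq table of ARS-UCD2.0 served for names and neighbours. Both arrays of each cow are from the same animal and so are paired. The correlation of their deviations from the group means ran from -0.24 to 0.11. Alternatives were other normalizations, signals and background correction, the authors' values, averaging of probes by gene, a filter on dim probes, other TREAT thresholds, another variance prior, slide row and cow as blocks, all arrays in 1 fit and leaving out each cow. Leaving out cow 833 for every member probe, the gel-forming mucins and the marker lists, and other scalings for the gel-forming mucins, were added after seeing the data.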

Additional observations from a re-analysis of the deposited data

Results flagged for a closer look

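In 8 of 80 sets of 4 arrays (10%) the extreme array lay far from the other 3 by Dixon's criterion, where chance alone gives about 5%. In WBC of SCE cows, cow 833 was low for both custom FCGBP probes, at 6.76 (CUST_485) and 6.50 (CUST_486), and for the SPDEF probe A_73_P330266 at 9.63 against 10.59 to 10.75 in the other 3. In the same group cow 846 was high for AGR2 at 6.30, a value not well above background, and for MUC1 at 6.39, also not well above background. Among WBC of healthy cows, cow 841 was low for MUC1 at 6.28 and cow 883 was low for the plus-strand TFF2 probe at 5.44, and in endometrium SCE cow 833 was high for the latter at 6.46, all close to background.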

How the results depend on the processing

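In endometrium, in WBC and in the contrast of both differences, 0 members passed after adjustment under every alternative. Before adjustment the 3 members that passed in endometrium (TFF3, FCGBP and AGR2) became 3 to 4 with other processing and 1 to 4 when a cow was left out. The share of all probes was 0.451%, and ran from 0.352% to 2.01% and from 0.329% to 1.75%. TFF3 and FCGBP were listed with this contrast known. Nothing is therefore read from these counts, or from those for the contrast of both differences. The count of 1 came without healthy cow 877, which left TFF3. In WBC it was 0 with other processing and 0 to 1 when a cow was left out (MUC1 without cow 850, TFF2 without cow 877 or 883). For the contrast of both differences 3 members became 3 to 4, and 3 to 6 when a cow was left out, the latter without cow 883. With cow as a replicate block the counts were 6 members for endometrium against WBC and 0 after adjustment for that contrast, with a fitted correlation of -0.06, and no call changed. The mean of the FCGBP probes reversed the tissue difference of the brightest probe, from -0.99 to 0.30. The SPDEF tissue difference missed the threshold with the processed signal (1.03), the mean of its probes (0.75) and in 6 of 8 fits without a cow (1.03 to 1.49 there). The causes were not tested. Over all probes, unadjusted calls were 210 in endometrium and 57 in WBC and ran from 100 to 935 and from 23 to 672 with other processing, lowest with averaged probes and highest without a fold threshold; without SCE cow 846 they were 815 in endometrium and without SCE cow 833 they were 673 in WBC. TFF2 in endometrium and AGR2 in WBC give bounds only, and the brightest TFF3 and MUC1 probes were well above background on 1 of 8 WBC arrays.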
